A study of Rattus norvegicus with 8 samples.

Results

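The 2 arms of the microRNA (miRNA) miR-33, miR-33-5p and miR-33-3p, were followed under 3 antipsychotic drugs in C6, a glioma line from rat. Members were taken by name, rno-miR-33-5p and rno-miR-33-3p, and make up 2 of the 719 miRNAs on the array. For 5 days cells were given daily either haloperidol at 2 µg/ml, risperidone at 4 µg/ml or clozapine at 25 µg/ml. Controls were left untreated, and the labels name no vehicle for the controls. All groups were grown in the same high-glucose medium with horse serum and fetal bovine serum, which itself carries cholesterol. Each group had 2 cultures, called biological repeats in the design text, with 1 single-colour (Cy3) rat miRNA array each, so 8 arrays on 1 slide. Replicate numbers coincide with slide rows, and groups with slide columns, so group and column cannot be told apart. C6 is a single tumour-derived line, not primary astrocytes.

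miR-33 is cut from an intron of Srebf2, the gene of SREBP2, a transcription factor that switches on cholesterol synthesis and uptake when cell sterol is low and that also drives its own gene. The guide arm, miR-33-5p, is known to repress the cholesterol exporter ABCA1 and genes of fatty acid oxidation, so that host gene and miRNA both act to keep sterol in the cell. In brain, astrocytes make cholesterol and pass it to neurons on lipoproteins loaded through ABCA1. Antipsychotic drugs are reported to raise SREBP target genes in glial cells, and the question put to these arrays is whether miR-33 moves with them. The arrays measured mature miRNAs only, and the Srebf2 transcript was not measured.

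The mature sequences are shown because the array reads each arm separately and the seed, bases 2 to 8 from the 5′ end and here in capitals, sets which messages an arm can pair with. They are from RefSeq, build GRCr8, on the plus strand of chromosome 7, at 115593957 to 115593977 for the 5p arm and at 115593997 to 115594017 for the 3p arm.
miR-33-5p: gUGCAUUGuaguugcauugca
miR-33-3p: cAAUGUUUccacagugcauca
Each arm is 21 bases long. Among 693 named mature rat miRNAs in the table, 0 others had the seed of miR-33-5p and 0 others that of miR-33-3p. The 7 bases of the 5p seed occur again inside miR-33-5p itself, at positions 13 to 19.

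The hairpin of 69 bases, with both mature arms in capitals, shows how they lie on its opposite sides.
Mir33 hairpin: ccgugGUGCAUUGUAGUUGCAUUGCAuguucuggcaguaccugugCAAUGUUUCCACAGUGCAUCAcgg
It lies at chr7:115593952-115594020 (GRCr8, plus strand), within the span of Srebf2 (115542774 to 115600945) on the same chromosome. That is 51178 bases after the first base of the Srebf2 span and 6925 bases before its end. Which intron holds it was not looked up here, since the gene table used gives no exons. The array design names the older rn4 build, and no coordinate was carried between builds.

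Both arms come from transcripts that begin at the host gene, so 250 bases of the Srebf2 promoter are printed as context (GRCr8, chr7:115543057-115543306, plus strand). RefSeq's promoter table places the start at 115543307, which is 533 bases inside the annotated span of the gene given above, and distances of motifs are counted from 115543307.
Srebf2 promoter: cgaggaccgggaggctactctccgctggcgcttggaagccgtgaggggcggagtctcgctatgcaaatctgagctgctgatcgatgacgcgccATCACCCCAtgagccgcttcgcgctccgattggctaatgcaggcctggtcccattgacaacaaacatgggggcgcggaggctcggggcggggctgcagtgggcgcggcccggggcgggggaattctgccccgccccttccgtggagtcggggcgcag
The capitals mark a match to ATCACCCCA, a sterol regulatory element of the kind SREBP binds, which begins 157 bases before that start. Searched on both strands, that motif was found in 0.212% of 33469 promoter windows of this length. The box CCAAT, bound by NF-Y, had 1 match 129 bases before that start on the minus strand, and 34.0% of the windows hold it. The 2 motifs do not overlap here. Promoter activity was not measured, and a match is a description of the letters.

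Of 719 miRNAs, 263 were called detected on at least 1 array. Between 193 and 254 were detected per array, the fewest on risperidone replicate 2 (193) and clozapine replicate 2 (203). Risperidone replicate 2 was also the dimmest array: the 75th percentile over probes well above background on all arrays was 388 intensity units, against 689 to 1480 on the others. Detection calls of miRNAs listed as cell type markers were looked up, and they do not by themselves settle the labelled cell type. All 5 astroglial and glioma miRNAs looked for were detected on 8 arrays, while neuronal miRNAs (3) and the liver miRNA miR-122 (2 arms) were detected on 0. The oligodendrocyte miRNAs miR-338-3p and miR-219-5p were detected on 8 arrays each, and so was endothelial miR-126a-3p. Single miRNAs of blood cells and muscle were called on some arrays, miR-150-5p on 5, miR-223-3p on 4, miR-142-3p on 3, miR-451-5p on 2 and miR-206-3p on 5. Of the same lists, miR-142-5p, miR-144-3p, miR-1-3p and miR-133a-3p were detected on 0 arrays, and endothelial miR-126a-5p on 1. At the floor used below for log2 levels, miR-142-3p lay on 8 arrays and miR-451-5p on 7.

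miR-33-5p was detectable in every culture, and miR-33-3p in most. The software called miR-33-5p detected on 8 of 8 arrays and miR-33-3p on 6 of 8, missing on risperidone replicate 2 and clozapine replicate 2. Both passed the filter for testing, which asks for detection on both arrays of at least 1 group. Each arm is read by 3 probes with 20 spots per array. For miR-33-5p, spots well above background numbered 7 and 6 of 20 under haloperidol, 19 and 5 under risperidone, 6 and 6 under clozapine, and 0 and 6 in controls. On control replicate 1 the detection call for miR-33-5p therefore stands without a single spot well above background.

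Levels are given first as the summed probe signal in percent of the array's 75th percentile over probes well above background on all arrays. miR-33-5p stood at 5.80% and 6.47% in haloperidol-treated cells, 12.9% and 3.27% in risperidone-treated cells and 2.68% and 7.95% in clozapine-treated cells, against 0.699% and 3.98% in controls. The lowest value of the 8 was that of control replicate 1 and the highest that of risperidone replicate 1. Both haloperidol arrays lay above both controls, whereas for risperidone and clozapine 1 array lay above both controls and the other between them. In all, 4 of 6 drug arrays exceeded both controls and 0 lay below both. How many other tested miRNAs reached that count was not determined. For cultured cells measured in bulk, a change in the share of cells carrying the miRNA and a change in its amount per cell cannot be told apart.

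**Figure D1:**
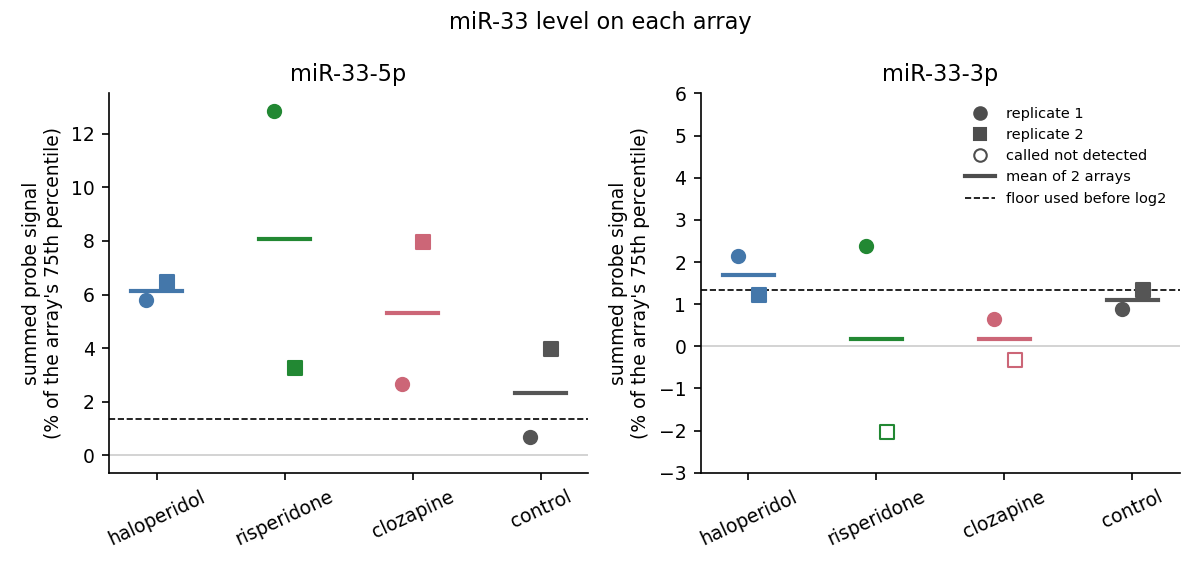
Summed probe signal of miR-33-5p (left) and miR-33-3p (right) on each array, in percent of the array's 75th percentile, by group. Circles are replicate 1 and squares replicate 2, open symbols were called not detected, thick lines are means of 2 arrays, and the dashed line is the floor of 1.34% set before log2. The haloperidol arrays of miR-33-5p sit at 5.80% and 6.47%, above both controls, while the risperidone, clozapine and control pairs each spread over a wide range.

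The 3 probes of miR-33-5p gave the same picture of which arrays were high. The probe with most signal, A_26_P00001271, read 64.2 ± 2.40 and 49.4 ± 3.04 intensity units under haloperidol (SD over 6 spots of 1 array). It read 101 ± 5.99 and 14.2 ± 2.87 under risperidone and 19.0 ± 2.41 and 42.6 ± 2.68 under clozapine, against 8.16 ± 1.77 and 29.3 ± 1.89 in controls. In every group the spots of 1 array spread less than the 2 arrays differed, and the 2 haloperidol arrays were the closest pair in fold. Divided by the array's 75th percentile, this probe was at 4.34% and 5.15% under haloperidol, 9.29% and 3.66% under risperidone and 2.39% and 6.18% under clozapine, against 0.783% and 3.07% in controls. By this probe alone 5 of 6 drug arrays exceeded both controls, under clozapine replicate 1 between them.

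The other probes of miR-33-5p lay near background. A_26_P00001269 ranged over arrays from -1.15 to 17.1 intensity units, with 6 of its 56 spots well above background. A_26_P00001270 ranged from -0.372 to 21.8, with 8 of 56. On both, risperidone replicate 1 was highest and risperidone replicate 2 lowest, and 4 of 6 drug arrays exceeded both controls. The probes disagree on risperidone replicate 2, where these 2 probes read below 0 and A_26_P00001271 read 14.2. Probes of the 456 miRNAs detected nowhere had their lowest medians on clozapine replicate 2 (-5.79) and risperidone replicate 2 (-5.13), against -2.46 to -4.41 on the other arrays, so a signal of 0 is not the same background on each array. With these medians subtracted from every probe, an alternative chosen after seeing the data, the log2 fold changes of miR-33-5p were 1.08, 1.55 and 0.96 for haloperidol, risperidone and clozapine.

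**Figure D2:**
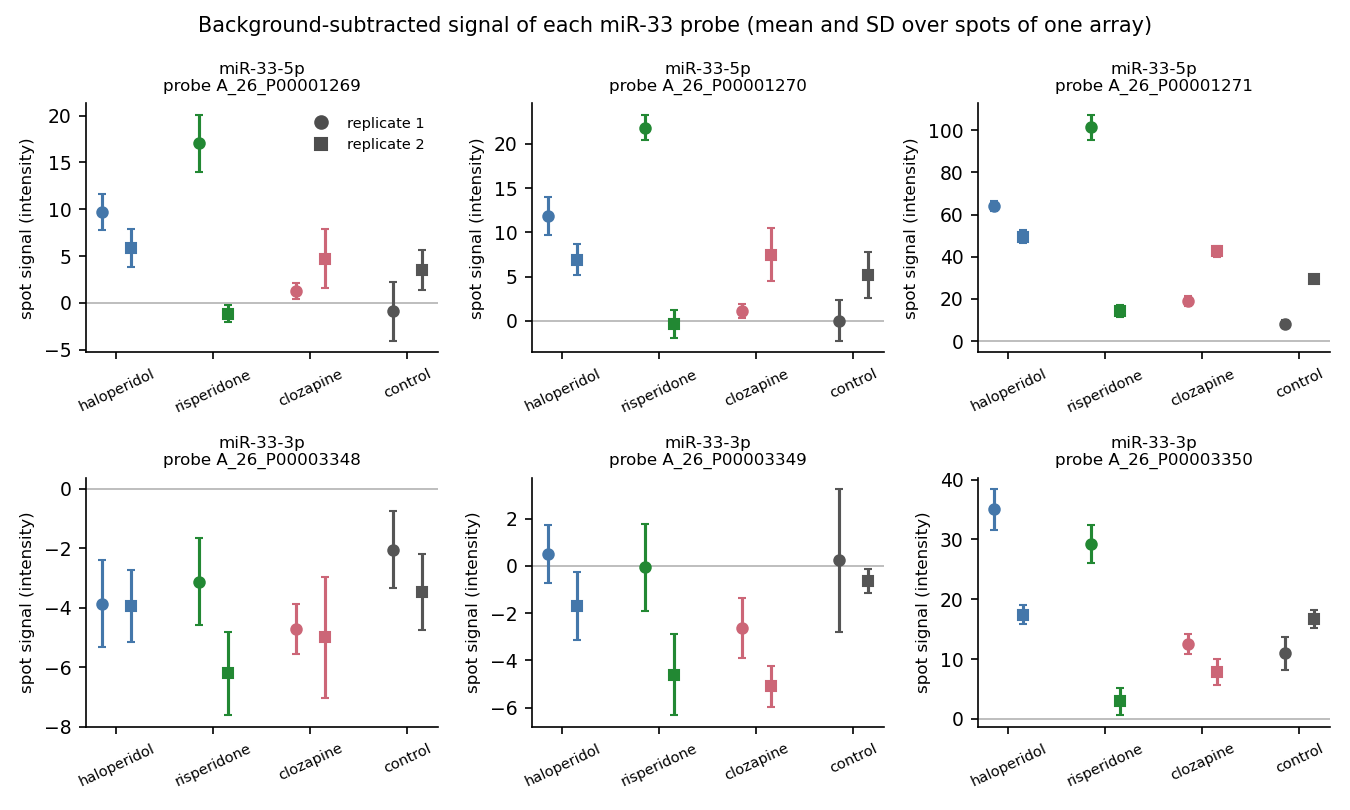
Background-subtracted spot signal (intensity) of the 3 probes of miR-33-5p (top) and the 3 of miR-33-3p (bottom), by group. Points are means and bars SDs over the 6 or 7 spots of a probe on 1 array, with circles for replicate 1 and squares for replicate 2. Most signal of each arm comes from its right-hand probe, with means of 8.16 to 101 for miR-33-5p and 2.92 to 35.0 for miR-33-3p.

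The authors' deposited gene-level signals, which sum the probes and carry an error from the scanner software, ordered the arrays in much the same way. For miR-33-5p they were 36.3 ± 3.48 and 20.3 ± 2.24 intensity units under haloperidol, 59.5 ± 4.72 and 5.84 ± 1.17 under risperidone and 7.72 ± 1.32 and 17.2 ± 2.01 under clozapine, against 3.38 ± 1.04 and 12.1 ± 1.53 in controls. These signals are not scaled between arrays. Risperidone replicate 2, the dimmest array, lay below control replicate 2 here, as it also did in the scaled sum of probes (3.27% against 3.98%). The deposited signals, once scaled and taken to log2, put it above control replicate 2 (-6.05 against -6.37). Within the treated groups the replicates of risperidone and clozapine ran in opposite orders, replicate 1 being the brighter under risperidone and replicate 2 under clozapine.

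For the comparisons, scaled sums were floored at 0.0134 (-6.22 on the log2 scale), taken to log2 and fitted over all 8 arrays with limma. The floor acts on 1 array for miR-33-5p, control replicate 1, and so understates its fold changes. The mean log2 level was -4.03 ± 0.11 under haloperidol, -3.95 ± 1.40 under risperidone and -4.44 ± 1.11 under clozapine, against -5.44 ± 1.11 in controls (SD, n = 2 arrays each). Haloperidol replicates were close, and in each of the other groups the 2 arrays differed by more than any drug mean did from the control mean.

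miR-33-5p was 2.65-fold higher under haloperidol than in controls, 2.80-fold higher under risperidone and 2.00-fold higher under clozapine, and none of these differences passed the test. The log2 fold changes were 1.41, 1.49 and 1.0, each with a standard error of 0.91. By limma with Benjamini-Hochberg adjustment over 243 tested miRNAs, adjusted p was 0.581, 0.521 and 0.639, and unadjusted p 0.178, 0.158 and 0.318. The 95% interval of the haloperidol difference ran from 0.545-fold to 12.9-fold, that of risperidone from 0.576-fold to 13.6-fold and that of clozapine from 0.411-fold to 9.73-fold. Each interval holds both no change and a severalfold one. The drugs were given at different doses and share the 2 control arrays, so their values stand side by side with no test between them.

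Over all miRNAs, limma called 0 of 243 (0%) for haloperidol, 0 of 243 (0%) for risperidone and 0 of 243 (0%) for clozapine at an adjusted p under 0.05. At an unadjusted p under 0.05 there were 16 (6.58%), 21 (8.64%) and 36 (14.8%), with miR-33-5p in 0 of the 3 sets. These counts shifted with the settings and arrays used, from 1 to 60, 0 to 60 and 6 to 66. With normexp background correction miR-33-5p had an unadjusted limma p of 0.0344 for risperidone and 0.0155 for clozapine, with adjusted p of 0.628 and 0.281. With the undetected-probe medians subtracted its unadjusted limma p for risperidone was 0.0472, with an adjusted p of 0.517. Below both controls on all of a drug's arrays were 32.1% of tested miRNAs for haloperidol, 32.9% for risperidone and 33.7% for clozapine. Neither miR-33 arm could be among them, since control replicate 1 was at the floor for both. By size, miR-33-5p had the 2nd highest log2 fold change of the 243 under haloperidol, the 3rd under risperidone and the 5th under clozapine. The medians over all tested miRNAs were -0.15, -0.15 and -0.17. By unadjusted p in limma, miR-33-5p ranked only 69th, 71st and 121st. Its standard error of 0.91 stood beside a median of 0.29 over tested miRNAs. A log2 fold change above 1 was reached by 4.53% of tested miRNAs under haloperidol, 4.53% under risperidone and 1.65% under clozapine. Both haloperidol arrays stood above both controls for 11.5% of tested miRNAs, and this share was 7% under risperidone and 5.35% under clozapine. The moderated F test over the 4 groups gave miR-33-5p an adjusted p of 0.849 (unadjusted 0.416) and called 0 of 243 miRNAs (0%), with 8 at an unadjusted p under 0.05.

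Averaged over the 3 drugs, miR-33-5p was 2.46-fold higher than in controls. The log2 difference was 1.30 (SE 0.74), with an adjusted p of 0.405 in limma. That fit called 0 of 243 miRNAs (0%), with 37 (15.2%) at an unadjusted p under 0.05 and 3.7% with a log2 difference above 1. With the slide row as a block it called 7, with 82 at an unadjusted p under 0.05, and miR-33-5p had an adjusted p of 0.299. With normexp the unadjusted limma p of miR-33-5p was 0.0424 and its adjusted p 0.645. An exact permutation test of the 6 drug arrays against the 2 control arrays, two-sided over all 28 choices of 2 arrays, gave p = 0.179, and the smallest p it can give is 0.0357. All 6 drug arrays exceeded both controls for 1.65% of tested miRNAs, and miR-33-5p, with 4 of 6, was not among them. The share of tested miRNAs with 4 of 6 was not determined.

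Much of the size of the difference rested on control replicate 1. Against control replicate 2 alone the log2 differences of miR-33-5p were 0.62 under haloperidol, 0.70 under risperidone and 0.22 under clozapine, and against control replicate 1 alone 2.19, 2.27 and 1.78. All 6 values were above 0. By rank of size, miR-33-5p was 8th of 243 under haloperidol, 6th under risperidone and 21st under clozapine against control replicate 2 alone. Without control replicate 1 the adjusted p was 1 for haloperidol, 0.979 for risperidone and 1 for clozapine in limma. Leaving out risperidone replicate 1 lowered the risperidone value to 0.50, leaving out risperidone replicate 2 raised it to 2.48, and leaving out clozapine replicate 2 lowered the clozapine value to 0.22, against 1.78 without clozapine replicate 1.

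**Figure D3:**
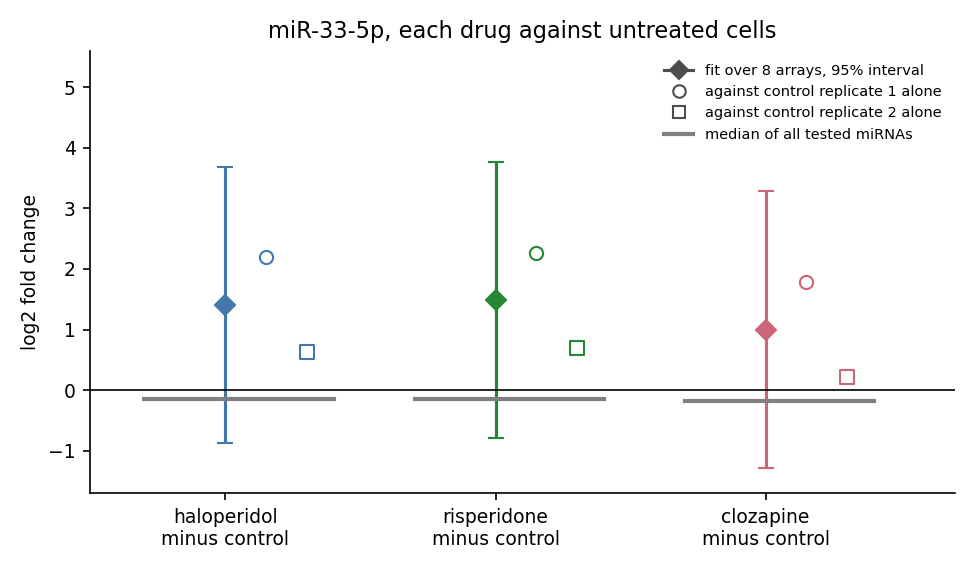
Log2 fold change of miR-33-5p for each drug against untreated cells. Diamonds are the fit over 8 arrays with 95% intervals, open circles the difference against control replicate 1 alone, open squares that against control replicate 2 alone, and grey lines the median over 243 tested miRNAs. Every interval includes 0, and the squares (0.62, 0.70 and 0.22) lie well below the circles (2.19, 2.27 and 1.78).

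Each slide row holds 1 array of every group, so drug and control arrays were also compared within rows. The fit reported above has no term for the row. In row 1 the drug array exceeded the control array by 2.11 under haloperidol, 3.26 under risperidone and 1.0 under clozapine on the log2 scale, with the row 1 control at the floor. In row 2 the differences were 0.70, -0.28 and 1.0. Haloperidol and clozapine thus kept their direction in both rows, and risperidone at these levels did not. The row 2 sign of risperidone turned with the processing. Risperidone replicate 2 lay above control replicate 2 with quantile normalization (5.10 against 4.83) and with scaled deposited signals (-6.05 against -6.37). It also did so by the brightest probe alone, with all probes setting the percentile, with normexp and with the undetected-probe medians subtracted. Unscaled (3.66 against 5.25) and with a lower floor it stayed below. With the row, which is also the replicate number, as a block in limma, the fold changes were the same and adjusted p was 0.396, 0.361 and 0.531. That fit called 0, 1 and 2 of the 243 miRNAs for haloperidol, risperidone and clozapine, and neither arm of miR-33.

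The gap between the replicates of a group was itself large for miR-33-5p. Under risperidone replicate 1 exceeded replicate 2 by 1.98 on the log2 scale, the largest such gap among the 243 tested miRNAs, whose median gap was 0.35. Under clozapine replicate 2 exceeded replicate 1 by 1.57, and 3 of 243 miRNAs had a gap at least as large. These gaps depended on the processing. With the undetected-probe medians subtracted, risperidone replicates 1 and 2 were at -2.84 and -3.81, and unscaled at 7.13 and 3.66. With normexp both orders turned, replicates 1 and 2 being at -1.82 and -1.17 under risperidone and -1.05 and -1.61 under clozapine. In controls replicate 2 exceeded replicate 1 by at least 1.57, a bound set by the floor on replicate 1. Under haloperidol the gap was 0.16, below the median of 0.24. Risperidone replicate 2 was the dimmest array, but clozapine replicate 2, with the second fewest detected miRNAs, was the brighter clozapine array for miR-33-5p.

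**Figure D4:**
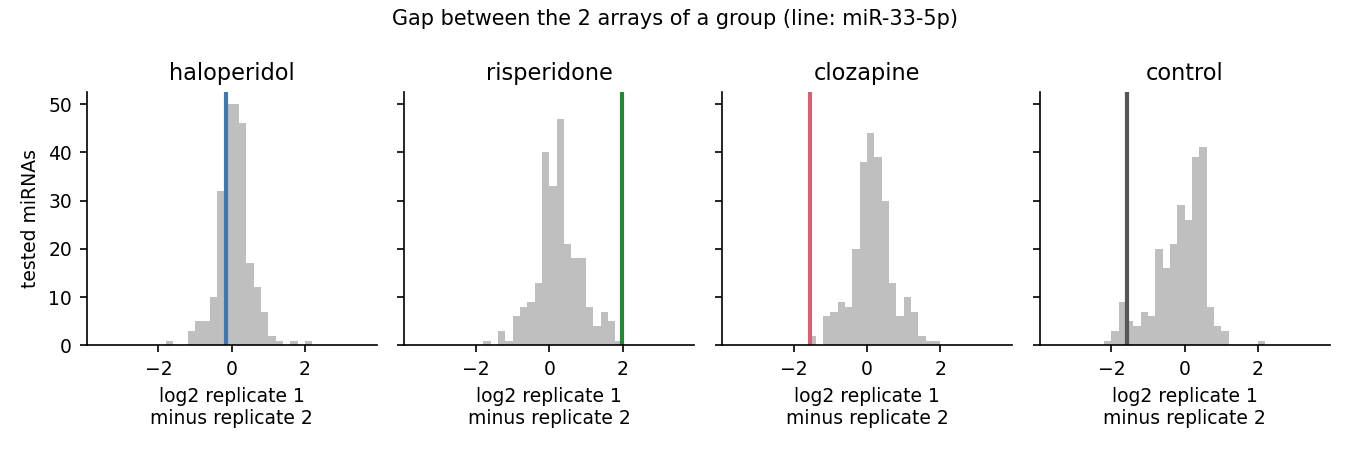
Histograms of the log2 difference between replicate 1 and replicate 2 of each group over 243 tested miRNAs, with miR-33-5p as a vertical line. The line lies at -0.16 under haloperidol, inside the bulk, at 1.98 under risperidone, at the right end, and at -1.57 both under clozapine and in controls, toward the left end, where the floor on control replicate 1 limits it.

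miR-33-3p, the passenger arm, which is also known to target lipid genes, was near the limit of the array. Its summed signal was 2.14% and 1.23% of the 75th percentile under haloperidol, 2.38% and -2.04% under risperidone and 0.654% and -0.323% under clozapine, against 0.881% and 1.33% in controls. Values lay above the floor on 2 of 8 arrays, haloperidol replicate 1 and risperidone replicate 1. Control and clozapine arrays were all at or under the floor, so no fold is given for clozapine. The fitted log2 fold changes of 0.34 for haloperidol and 0.41 for risperidone (SE 0.34 each, n = 2 per group) rest on those 2 arrays and had adjusted p of 0.655 and 0.555 in limma. The floor hides spread here, so these standard errors may be too low.

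One probe carried the miR-33-3p signal. A_26_P00003350 read 35.0 ± 3.41 and 17.4 ± 1.63 intensity units under haloperidol (SD over 6 spots), 29.2 ± 3.19 and 2.92 ± 2.33 under risperidone and 12.5 ± 1.69 and 7.86 ± 2.14 under clozapine, against 11.0 ± 2.73 and 16.8 ± 1.50 in controls. In these unscaled units the replicate 1 arrays of haloperidol and risperidone were the brightest of the 8, as for the 5p arm. These arrays also had the highest 75th percentiles, 1480 and 1091. Scaled, haloperidol replicate 1 of the main 5p probe (4.34%) lay below clozapine replicate 2 (6.18%) and haloperidol replicate 2 (5.15%). For A_26_P00003350, scaled, haloperidol and risperidone replicate 1 stayed highest (2.37% and 2.67%). By A_26_P00003350, 3 of 6 drug arrays exceeded both controls, and risperidone replicate 2 was lowest at 0.754%. Its other probes, A_26_P00003348 and A_26_P00003349, had 0 spots well above background on any array. With this probe alone in place of the sum the log2 fold changes were 0.57 for haloperidol and 0.30 for risperidone, with control replicate 1 and risperidone replicate 2 at the floor.

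The other miRNAs of the sterol pathway were taken as lists. Besides miR-33, the sterol-linked list held miR-96-5p, miR-182 and miR-183-5p, a cluster that SREBP2 is reported to induce, and all 3 were detected on 0 of 8 arrays. miR-33 was therefore the only detected member of that list on these arrays. Among miRNAs reported to repress ABCA1, 9 of 13 on the array were tested and 0 passed in either direction for any of the drugs. Their median log2 fold change was 0.25 under haloperidol, 0.15 under risperidone and 0.18 under clozapine, against -0.15, -0.15 and -0.17 over all tested miRNAs. Under each drug 6 of 9 were above 0, beside 37.9%, 38.3% and 31.7% of all tested miRNAs. miR-106b-5p, of a cluster that promotes growth, was at 0.52, 0.44 and 0.40, and miR-27a-3p, a repressor of lipid genes, at 0.46, 0.48 and 0.51. miR-128-3p, a neural miRNA, was at -0.40, -0.54 and -0.50. The lowest of the list under each drug was miR-10b-5p, at -0.46, -0.82 and -0.82, with 5 of 8 arrays at the floor. As with miR-33-5p, the list's position turned on the control array. Set against control replicate 2, its medians were -0.02, -0.11 and -0.14, with 1, 2 and 3 of 9 above 0. Over all tested miRNAs those medians were -0.10, -0.13 and -0.18, so the list lay only slightly higher. Set against control replicate 1 its medians were 0.62, 0.52 and 0.55, beside -0.14, -0.15 and -0.19.

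Among miRNAs reported to restrain SREBP or cholesterol synthesis genes, 4 of 5 were tested and 0 passed. Their medians were -0.30 under haloperidol, -0.25 under risperidone and -0.28 under clozapine, beside -0.15, -0.15 and -0.17 for all that were tested. miR-98-5p, of the let-7 family, was at -0.33, -0.46 and -0.42, with levels of 0.30 and 0.26 under haloperidol, 0.20 and 0.10 under risperidone and 0.23 and 0.14 under clozapine, against 0.75 and 0.46 in controls. All 6 drug arrays of miR-98-5p lay below both controls, as did those of miR-342-3p and, from the ABCA1 list, miR-128-3p. The same held for 19.8% of tested miRNAs. miR-342-3p was at -0.41, -0.36 and -0.37, miR-185-5p at 0.01, -0.14 and -0.20 and miR-223-3p, a leukocyte miRNA, at -0.28, 0.24 and -0.02. Among other miRNAs of lipid metabolism, miR-103-3p and miR-107-3p, which lie in introns of pantothenate kinase genes, and miR-30c-5p were tested, with 0 passing and values between -0.24 and 0.16.

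The miRNAs most like miR-33-5p were those with the highest Pearson correlation of log2 level over the 8 arrays, among 184 others detected on all of them. They were miR-30e-5p (r = 0.96), miR-30a-5p (0.95), miR-362-3p (0.94), miR-29b-3p, which represses collagens (0.93), and miR-503-5p, of the miR-15/16 seed family (0.93). miR-30e-5p, the closest, had log2 levels of -0.64 and -0.90 under haloperidol, -0.42 and -1.28 under risperidone and -1.23 and -0.76 under clozapine, against -2.09 and -1.13 in controls. It shared with miR-33-5p the lowest value on control replicate 1, the highest on risperidone replicate 1 and the order of replicates in every group but haloperidol. Without control replicate 1 and risperidone replicate 1, the arrays farthest from the median of miR-33-5p, the 5 correlations were 0.87, 0.87, 0.94, 0.94 and 0.73. The oligodendrocyte miRNAs were likewise lowest on control replicate 1 and highest on risperidone replicate 1. miR-338-3p had log2 levels of 0.32 and -0.12 under haloperidol, 0.53 and -0.20 under risperidone and 0.14 and 0.19 under clozapine, against -1.31 and -0.53 in controls. miR-219-5p had levels of -3.31 and -3.70 under haloperidol, -2.85 and -4.62 under risperidone and -4.60 and -3.85 under clozapine, against -4.99 and -3.66 in controls. The 2 detected markers of that list stood at a median log2 fold change of 0.92 under haloperidol, 0.84 under risperidone and 0.59 under clozapine, with 0 passing, and their part in the result was not tested. All values come from the same 8 arrays and share their scaling, so the correlations are a description.

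At the other end stood miRNAs that were high where miR-33-5p was low. They were let-7e-5p (r = -0.88) and let-7c-5p (-0.85), which restrain growth genes, miR-664-3p (-0.85), miR-222-3p, a repressor of the cell-cycle inhibitor p27 (-0.84), and miR-125a-5p (-0.83). let-7c-5p had log2 levels of 3.62 and 3.39 under haloperidol, 3.50 and 3.62 under risperidone and 3.67 and 3.32 under clozapine, against 4.16 and 3.62 in controls. Control replicate 1 was its highest array. Ranked by Spearman's rho instead, 2 of the 5 most alike and 3 of the 5 least alike miRNAs were the same.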

How the data were processed

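MiRNA levels were measured in 8 cultures on 1-colour Agilent arrays, with 100 ng of total RNA labelled per array. The values the authors deposited are linear intensity signals, not scaled between arrays, made with Feature Extraction 10.7.3.1 per the file headers. Spot-level files hold background-subtracted signal and flags (0 or 1), and gene-level files give 0.1 for each entry called not detected. Depth has no counterpart on arrays, and the number of arrays limits the precision.

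Spot signals without outlier spots were averaged per probe and summed per miRNA. Each array was scaled to the 75th percentile of its 291 probes well above background on all arrays, and sums were floored at the 5th percentile of detected values and taken to log2. Of 719 miRNAs 243 were tested with limma 3.58.1 in R 4.3.3 (group means over 8 arrays, 4 residual and 5.43 total degrees of freedom, two-sided, Benjamini-Hochberg adjusted p under 0.05). The fit was tested on simulated data. The groups share replicate numbers, and the fit reported used no block. Alternatives changed scaling, background, probe summary, filter, floor, variance model, block and the arrays in the fit. Normexp used spot medians, as the columns used hold no spot means.

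Both arms were named always, with list members and the 5 miRNAs of highest and 5 of lowest Pearson r. The members and lists were chosen with earlier results of these data known.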

Additional observations from a re-analysis of the deposited data

How the results depend on the processing

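The log2 fold change of miR-33-5p was above 0 for each drug under the 8 alternative settings that change its level and when any 1 array was left out. It passed the threshold under none of these, nor under the 6 settings that change only the filter, the block or the variance. Over the settings it ran from 0.12 (normexp) to 1.88 (lower floor) with haloperidol, 0.88 (normexp) to 2.06 (percentile over all probes) with risperidone and 0.66 (no scaling) to 1.63 (percentile over all probes) with clozapine. The median over all tested miRNAs itself moved, from -0.15, -0.15 and -0.17 to -0.11, 0.37 and 0.55 with normexp, 0.09, -0.64 and -0.55 unscaled, and -0.04, 0.35 and 0.42 where all probes set the percentile. Leaving out 1 array gave 0.62 to 2.19, 0.50 to 2.48 and 0.22 to 1.78. Averaged over the drugs it ran from 0.68 to 1.77 over the settings and from 0.51 to 2.08 without 1 array, and the exact permutation p ran from 0.107 to 0.321. miR-33-3p passed under none either. Its haloperidol value turned to -0.13 with normexp, and its clozapine values, for which no fold is reported, ran from -0.69 to 0.92; the cause was not tested.

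Called miRNAs numbered 0 for haloperidol, risperidone, clozapine and the mean of the drugs as reported. With the replicate block limma called 0, 1, 2 and 7. With the block and only miRNAs detected on all 8 arrays, chosen after seeing the data, it called 0, 1, 1 and 1, and with no detection filter 1 for the mean of the drugs. Leaving out 1 array gave 0 to 5, 0 to 6, 0 to 7 and 0 to 7, the highest each without control replicate 2 and 0 otherwise. Neither arm of miR-33 was among any of these calls. The deviations of same-numbered arrays from their group means correlated at 0.16 to 0.71 over 6 pairs of groups, but with 2 numbers the labels' numbers are not shown to pair cultures beyond the row of the slide. The floor limits miR-33-3p to values on 2 arrays, though it was called detected on 6. With the lower floor, control replicates 1 and 2 also had values (-6.83 and -6.24), as did haloperidol replicate 2 (-6.35).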
